A study of Homo sapiens with 2 samples.

Results

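In B2B cells, 1021 of the 25326 open chromatin regions found in both replicates had their summit inside an exon of a protein-coding gene and more than 1 kb from every canonical transcription start site (TSS). They are called exonic regions below and were 4.03% of the regions, against 10293 promoter regions within 1 kb of a canonical TSS, 6418 intronic regions and 7594 intergenic regions. Regions were made by merging the overlapping ATAC-seq peaks of both replicates on chromosomes 1 to 22 and X, and the summit was that of the peak with the highest −log10 q. B2B (BEAS-2B) is a bronchial epithelial cell line that was immortalized and is not cancerous. The cells were wild type and untreated, with 2 biological replicates, and with this single condition there is no comparison between groups and no test. In ATAC-seq the Tn5 transposase cuts DNA that is not packed in nucleosomes, and a peak marks a place with more cuts than its surroundings.

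Most DNA that opens away from gene starts lies in introns and between genes, where it often acts as an enhancer bound by sequence-specific factors. AP-1, a dimer of FOS and JUN proteins, binds many such sites in epithelial cells, and CTCF is the insulator protein that anchors chromatin loops with cohesin. Exons carry a further constraint, because their letters also encode protein or untranslated RNA. Many genes have alternative starts as well, so an exon of another transcript can itself be a promoter.

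The sequences at the strongest coding exons show what such a region holds. The bases within 100 bp of the summit are given for the 3 coding regions with the highest fold enrichment among those with an AP-1 motif, for the 3 highest coding regions with a CTCF motif, and for the highest coding region with neither. They are from the hg38 reference, read 5′ to 3′ on the strand of the gene. Capitals mark the AP-1 motif TGAGTCA on either strand (TGACTCA when read from the other strand) or the CTCF consensus. The AP-1 set is as follows.
HMGXB3, chr5:150036620-150036820, plus strand: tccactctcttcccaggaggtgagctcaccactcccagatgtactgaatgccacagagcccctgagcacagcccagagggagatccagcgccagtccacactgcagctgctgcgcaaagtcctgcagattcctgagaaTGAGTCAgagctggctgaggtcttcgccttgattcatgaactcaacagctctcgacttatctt
EFNA5, chr5:107381270-107381470, minus strand: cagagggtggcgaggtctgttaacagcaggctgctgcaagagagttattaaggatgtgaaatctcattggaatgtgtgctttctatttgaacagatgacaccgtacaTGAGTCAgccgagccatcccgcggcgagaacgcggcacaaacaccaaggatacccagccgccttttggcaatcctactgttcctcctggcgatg
CREB3L2, chr7:137882346-137882546, minus strand: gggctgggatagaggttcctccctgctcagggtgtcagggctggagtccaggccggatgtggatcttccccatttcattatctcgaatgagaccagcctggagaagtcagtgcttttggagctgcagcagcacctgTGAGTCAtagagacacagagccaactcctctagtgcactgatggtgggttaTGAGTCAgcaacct
The CTCF set is as follows.
AHSG, chr3:186617093-186617293, plus strand: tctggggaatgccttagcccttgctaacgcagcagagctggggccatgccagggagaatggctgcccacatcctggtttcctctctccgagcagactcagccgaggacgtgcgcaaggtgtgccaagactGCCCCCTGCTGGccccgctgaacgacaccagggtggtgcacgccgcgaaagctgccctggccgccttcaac
SLC2A9, chr4:10018904-10019104, minus strand: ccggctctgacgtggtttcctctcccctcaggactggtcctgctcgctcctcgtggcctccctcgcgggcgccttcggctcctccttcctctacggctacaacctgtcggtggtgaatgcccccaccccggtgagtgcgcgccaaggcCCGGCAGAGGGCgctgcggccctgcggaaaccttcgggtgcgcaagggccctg
C17orf50, chr17:35764103-35764303, plus strand: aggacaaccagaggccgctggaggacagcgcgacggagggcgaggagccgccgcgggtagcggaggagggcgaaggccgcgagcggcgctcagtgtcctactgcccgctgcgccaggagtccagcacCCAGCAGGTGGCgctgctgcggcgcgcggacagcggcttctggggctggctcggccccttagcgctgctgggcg
The region without either motif is the following.
SUMF1, chr3:4417035-4417235, minus strand: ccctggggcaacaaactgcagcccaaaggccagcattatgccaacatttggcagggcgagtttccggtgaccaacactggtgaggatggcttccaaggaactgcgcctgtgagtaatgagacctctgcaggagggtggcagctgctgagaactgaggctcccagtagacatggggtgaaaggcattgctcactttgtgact

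HMGXB3 had the highest fold enrichment of all exonic regions. Fold enrichment is the fragments at the summit over the local background, each with 1 added, as MACS2 gives it. The region chr5:150036482-150036885 (hg38) lay over exon 12 of the 20 exons of the canonical transcript. Replicate 1 gave a fold enrichment of 21.1 and replicate 2 gave 28.8, a mean of 24.95 ± 5.40 (SD, n = 2), with 121 and 126 fragments at the summit. The AP-1 motif in its sequence was 41 bp from the summit and lay in the coding bases.

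AHSG encodes fetuin-A, a plasma protein made by the liver. The region chr3:186617000-186617492 over exon 4 of 7 reached 19.1 and 25.3 in the 2 replicates, with a CTCF motif 36 bp from the summit and in coding bases. A canonical promoter is called open where the summit of a region lay within 1 kb of the canonical TSS. AHSG had none, so the exon was open while the gene's own start was not detected. SUMF1 encodes the enzyme that activates sulfatases. Its region chr3:4416928-4417345 over exon 6 of 9 had fold enrichments of 19.9 and 23.0, with neither motif within 100 bp of the summit.

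EFNA5 encodes an ephrin, a membrane-bound ligand of EPH receptors. Its region chr5:107381172-107381804 lay at the start of the coding part of the last exon and had values of 19.1 and 20.7, with an AP-1 motif 10 bp from the summit. CREB3L2 encodes a bZIP transcription factor that is held in the endoplasmic reticulum membrane until it is cleaved. Its region chr7:137882191-137882664 over exon 11 of 12 had values of 16.3 and 17.8. The CREB3L2 window held a pair of AP-1 motifs, and the nearer, 39 bp from the summit, lay just inside the intron over the 5′ splice site. These coding regions all stood in the highest 5 of the coding class, and in each of them replicate 2 was higher than replicate 1.

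The exonic regions were placed by the part of the exon under the summit. The 5′ UTR held 293 (28.7%), coding sequence 260 (25.5%, 95% Wilson interval 22.9 to 28.2) and the 3′ UTR 254 (24.9%, 22.3 to 27.6), while 214 (21.0%) lay in exons of transcripts with no coding sequence, such as retained introns. Intervals cover counting error only. Only 455 (44.6%) lay in an exon of the canonical transcript. A further 421 lay in an intron of that transcript and 145 outside it, so for most regions the exon was not one of the canonical transcript. At the 1 kb limit the values ran on without a step. The nearest members, in CHD3 at 1009 bp, MAOA at 1011 bp and ZNF575 at 1018 bp from a canonical TSS, had fold enrichments of 4.16 and 7.02, 4.16 and 5.21, and 7.28 and 8.84 in replicates 1 and 2. Just within the limit and so left out, TIPARP at 993 bp, PRDM6 at 994 bp and ACSS3 at 1000 bp had 4.68 and 4.95, 4.68 and 4.52, and 5.02 and 6.12.

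Another annotated TSS, of any transcript of any gene, lay within 1 kb of 602 exonic regions (59.0%, 55.9 to 61.9). The share was 19.9% of intronic and 20.5% of intergenic regions. Exon bases were themselves closer to such starts, since 28.1% of the exon bases counted and 7.17% of the intron bases lay within 1 kb of one. The share of regions was thus 2.10 times that of bases in exons and 2.77 times in introns. In 355 of the 602 the TSS was within 100 bp of the summit, and in 512 it belonged to the same gene. The kinds of exon differed widely. Of the 5′ UTR regions 286 of 293 had such a TSS, against 124 of 260 coding regions, 147 of 214 in transcripts without coding sequence and 45 of 254 in the 3′ UTR. This order was partly set by the annotation. A first exon begins at an annotated TSS, and 248 of the 293 5′ UTR regions lay in one. Of the 254 3′ UTR regions 233 lay in a last exon. The share of bases near a TSS was not counted by kind of exon. The 419 exonic regions with no annotated TSS within 1 kb, called interior regions here, were therefore mostly 3′ UTR (209) and coding (136).

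**Figure D1:**
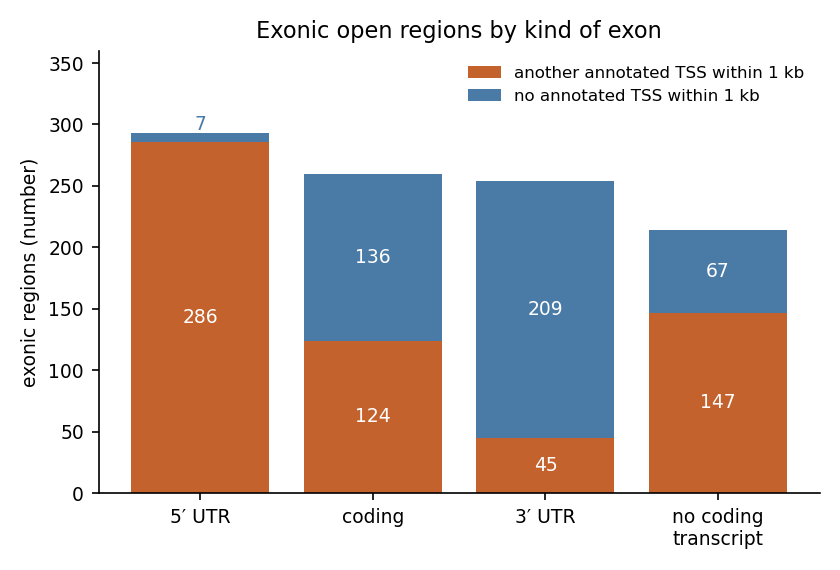
Number of exonic regions (y axis) by the part of the exon under the summit (x axis), split by whether another annotated TSS lay within 1 kb. The 5′ UTR bar is nearly all near a start site (286 of 293), and the 3′ UTR bar is mostly not (209 of 254).

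The strongest regions at alternative starts lay far inside genes. DAB2IP, a RAS GTPase-activating protein, had a region in a 5′ UTR of a short transcript, 92.0 kb downstream of its canonical TSS and 60 bp from the annotated start. Its fold enrichment was 18.9 and 20.4. BIN1, which bends membranes, had a region 21 bp from the start of a transcript without coding sequence, with 20.6 and 17.4. Of the highest 10, BIN1 and SYNE1 were the regions with the higher value in replicate 1. The BIN1 window held 3 copies of the AP-1 motif and is shown for that reason.
BIN1, chr2:127064807-127065007, minus strand: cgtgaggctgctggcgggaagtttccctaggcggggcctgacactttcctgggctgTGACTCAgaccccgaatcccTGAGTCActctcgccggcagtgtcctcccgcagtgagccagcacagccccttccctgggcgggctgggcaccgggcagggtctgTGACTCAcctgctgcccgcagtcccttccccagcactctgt

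SYNE1, which encodes a nesprin of the nuclear envelope, had values of 19.3 and 18.0 at 39 bp from a start, 335 kb from its canonical TSS. OXR1 and SYTL2 had regions at starts of short transcripts, with 15.8 and 19.5 for OXR1 and 13.9 and 19.0 for SYTL2. CAST encodes calpastatin, the inhibitor of calpains, and its region 4 bp from a start 40.4 kb inside the gene had 16.7 and 17.0. IGF2R encodes the receptor that clears insulin-like growth factor 2. Its 5′ UTR region was the exception in composition, with a GC content of 27.9%, the lowest of all exonic regions, a width of 171 bp and values of 17.8 and 19.9. In every gene of this group the canonical promoter was open as well.

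In the 3′ UTR the highest regions were in HS1BP3 (17.2 and 22.0), RPL27A (16.1 and 19.6), NCKAP1 (15.2 and 20.2), DCLK1 (15.1 and 17.7) and SH3TC2 (14.9 and 17.2). NCKAP1 is a subunit of the WAVE complex that drives actin branching, and its region lay in a last exon of 16704 bp, 11627 bp from any annotated TSS. RPL27A, a ribosomal protein gene, was the only of these 5 with an annotated TSS within 1 kb, at 118 bp. SH3TC2 held 4 exonic regions, the most of any gene, all in 3′ UTR sequence. The strongest SH3TC2 region had an AP-1 motif 9 bp from its summit, and the site is shown alone because it lies in a UTR.
SH3TC2, chr5:149002171-149002197, minus strand: attccccatcTGACTCAggttacagat
The other SH3TC2 regions were far weaker, at 5.39 and 5.73, 5.20 and 4.30, and 3.79 and 3.34. Exonic regions were found in 922 of the 19970 protein-coding genes, with a single region in 829, a pair in 88, and 3 or more in 5. Besides SH3TC2 these were LAMA2, FAAP20, PALLD and CYB561, with 3 each.

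Fold enrichment did not set exonic regions apart. The medians of replicates 1 and 2 were 6.06 and 7.25, beside 5.89 and 7.48 for intronic regions, 6.06 and 7.70 for intergenic regions and 7.45 and 8.92 for promoters. Members ranged from 2.59 to 21.1 in replicate 1 and from 2.81 to 28.8 in replicate 2. The 4 kinds of exon had medians of 5.83 to 6.12 in replicate 1 and 7.25 to 7.48 in replicate 2. Within exonic, intronic and intergenic regions the replicates differed by more than these kinds of region did within a replicate. Depth was read from the fragments at each summit, which came out whole for 1021 of 1021 members in either list. The median was 35 fragments in both replicates, the lowest 18 in replicate 1 and 14 in replicate 2, over backgrounds of 4.77 and 3.41. A place with fewer fragments was below detection and need not be closed.

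The replicates agreed in order but not in level. Across the 1021 regions the Spearman correlation of fold enrichment was 0.725, over regions that share libraries and are not independent replicates. Replicate 1 was the lower one in most regions, with a median ratio of replicate 1 to replicate 2 of 0.863, and it was the higher one in 266 (26.1%). Summits were a median of 37 bp apart. Taken alone, replicate 1 had 1162 exonic peaks (4.05% of its peaks) and replicate 2 had 1549 (4.29%), a mean of 4.17% ± 0.169 (SD, n = 2). Of these, 91.1% and 67.5% overlapped a peak of the other replicate. Exonic peaks of a single replicate were weaker, with median fold enrichments of 4.35 and 4.98.

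**Figure D2:**
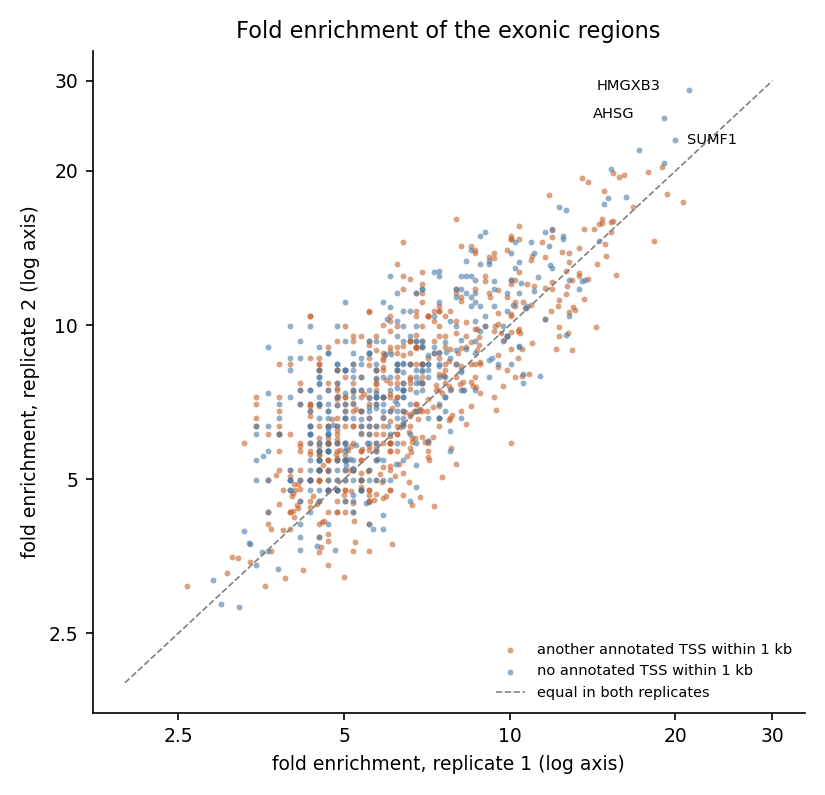
Fold enrichment of each of the 1021 exonic regions in replicate 1 (x axis) and replicate 2 (y axis), both log axes, colored by whether another annotated TSS lay within 1 kb. Most points lie above the dashed line of equal values, and HMGXB3, AHSG and SUMF1 are at the top.

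The members farthest from that shared order were DTD1 (3.98 and 9.97), IGSF22 (3.64 and 9.06) and SPACA6 (4.33 and 10.4) on the side of replicate 2. On the side of replicate 1 they were APOA1 (10.05 and 5.89), RTEL1-TNFRSF6B (7.28 and 4.42) and RNPEPL1 (6.12 and 3.73). IGSF22 had 20 fragments in replicate 1 and 39 in replicate 2, so such ratios rest on few fragments.

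Exonic regions were rich in GC. Within 100 bp of the summit they had a mean GC content of 60.8%, against 52.2% in intronic regions, 52.9% in intergenic regions and 68.8% at promoters. The ratio of observed to expected CpG within 250 bp had a median of 0.432, against 0.233, 0.247 and 0.836. Regions near another TSS had 63.5% GC and interior regions 56.9%. Their widths followed, with medians of 395 and 333 bp. The 5′ UTR regions were the widest kind, with a median of 453 bp. LONRF1, with 1809 bp in a 5′ UTR, ENSG00000255330, with 1464 bp, and PRDM8, with 1424 bp in its last coding exon, were the widest of all. No region summit lay within 1 kb of the canonical TSS of these 3 genes, but the LONRF1 region itself covered the canonical TSS of LONRF1.

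Per base, exons were open more often than introns, but GC content moved with this. Counting only bases more than 1 kb from a canonical TSS, there were 10.4 exonic regions per Mb of exon, 5.45 intronic regions per Mb of intron and 4.75 intergenic regions per Mb, an exon to intron ratio of 1.90. Exon bases had 46.1% GC and intron bases 41.2%. Within windows of equal GC the excess was not seen throughout. The ratio was 0.844 at 30 to 40% GC, 0.860 at 40 to 50%, 1.25 at 50 to 60%, 0.778 at 60 to 70% and 0.945 at 70 to 80%. Above 80% it was 2.25, with 34 exonic and 48 intronic regions and densities of 369 and 164 per Mb. Below 30% it was 5.76, but that class held 1 exonic and 3 intronic regions. From 30 to 80% GC density rose in both kinds of sequence, from 1.05 to 160 per Mb in exons and from 1.25 to 170 in introns. The kinds of exon were far apart, with 77.2 regions per Mb of 5′ UTR, 8.03 of coding sequence, 6.18 of 3′ UTR and 10.1 of exons without a coding transcript. Away from every annotated TSS the ratio of exons to introns was 1.26 (5.92 and 4.71 per Mb).

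**Figure D3:**
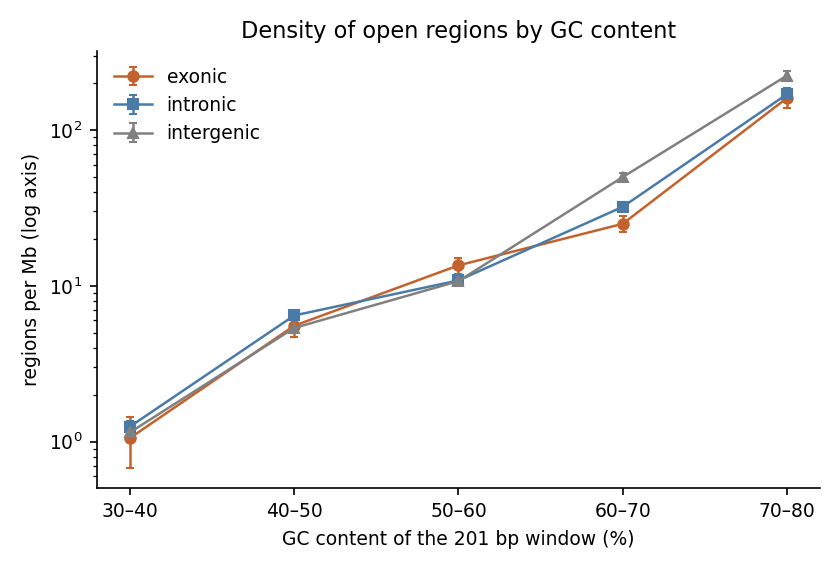
Regions per Mb (y axis, log) in exons, introns and between genes, by GC content within 100 bp of each base (x axis, 30 to 80%), bars showing an approximate 95% counting interval. The 3 lines rise together, and exons lie above introns at 50 to 60% GC and below them in the other classes shown.

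The AP-1 motif was within 100 bp of the summit in 235 exonic regions (23.0%, 20.5 to 25.7), against 2.89% of windows of the same length 1 kb to either side. The share was lower than in intronic regions, at 34.7% (difference −11.7 percentage points, 95% Newcombe interval −14.5 to −8.81), and intergenic regions, at 32.1%. It was higher than at promoters, at 2.81%. By kind of exon it was 11.6% in the 5′ UTR, 21.5% in coding sequence, 28.7% in the 3′ UTR and 33.6% in transcripts without coding sequence. Regions near another TSS had it in 18.1% and interior regions in 30.1%. Intronic regions near another TSS had it in 22.3% (difference −4.23 points, −7.95 to −0.284). Intronic regions with no TSS within 1 kb had it in 37.8% (difference −7.75 points, −12.2 to −3.01). GC content again moved with the share. At 40 to 50% GC the motif was in 41.0% of exonic and 40.9% of intronic regions, and at 50 to 60% in 36.6% and 37.2%. At 60 to 70% GC the shares were 16.4% (12.5 to 21.1) and 25.9% (23.2 to 28.8), the class in which the intervals did not overlap. Intergenic regions of that class had 15.6% (13.7 to 17.7), close to exonic regions, so the lower share was not particular to exons. Above 70% GC the shares of exonic and intronic regions were 3.49% and 4.76%.

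Sites sat close to the summits, at a median of 32 bp in exonic and 33 bp in intronic regions. Of the 235 regions 208 had 1 copy, 24 had 2 and 3 had 3 or more, and 0 held the AP-1 and CTCF motifs together, where a count of 0 of 1021 allows up to 0.294% (3 counts). The motifs together were not counted in the other kinds of region, so whether this is particular to exons was not tested. Seen from the genome, exons away from promoters held 14049 matches of the AP-1 motif, of which 238 (1.69%, 1.49 to 1.92) lay within 100 bp of an open summit. The share was 1.38% (1.33 to 1.44) of 187036 intronic matches and 1.13% of 252810 intergenic ones. It was 1.06% in coding sequence, 1.35% in the 3′ UTR and 5.37% in the 5′ UTR. Most matches of the motif in exons were thus not in an open region of both replicates.

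**Figure D4:**
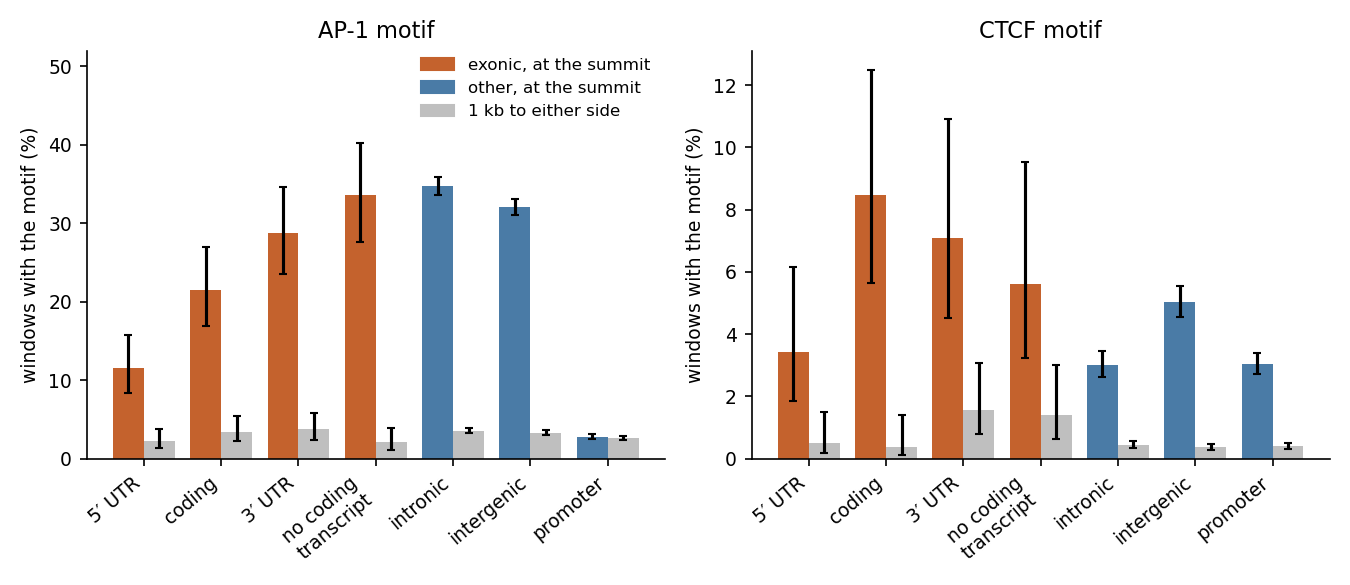
Share of windows of 100 bp to either side with the AP-1 motif (left) and the CTCF motif (right) by kind of region (x axis), at the summit (colored) and 1 kb to either side (gray), with 95% Wilson intervals. AP-1 rises from 11.6% in the 5′ UTR to 33.6% in transcripts without coding sequence, while CTCF is highest in coding sequence at 8.46%.

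Read in the coding frame, TGAGTCA and TGACTCA begin with the stop codon TGA. Of the 3743 matches in coding sequence of canonical transcripts, 1 was in the frame in which TGA is a codon. A further 42.6% were a base later and 57.3% 2 bases later. A stop codon ends a coding sequence, so the near absence from that frame was fixed in advance and is not a result. Of the 31 matches within 100 bp of the summit of a coding member, 0, 8 and 23 fell in these 3 frames, the last being 74.2%. With 31 matches, whether that share differs from the 57.3% was not tested. The motif shares letters with the 5′ splice site too. In 21 of the 235 AP-1 regions (8.94%, 5.92 to 13.3) the match nearest to the summit spanned the end of an exon at a 5′ splice site or lay within 1 base of it. Of the 196 such matches centred in an exon it was 8 (4.08%, 2.08 to 7.85), beside 297 (2.11%, 1.89 to 2.37) of the 14049 exonic matches. CREB3L2 was the strongest of them, and ST14, LIMK1, CD151 and VWF were among the others, named after these matches were seen.

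The CTCF motif showed the other order. It was in 62 exonic regions (6.07%, 4.77 to 7.71), against 0.930% of the flanking windows and 3.02% of intronic regions (difference 3.05 points, 1.67 to 4.73). The flanking windows of intronic regions had 0.452%. The share at the summit was thus 6.53 times that of the flanking windows in exonic, 6.69 times in intronic and 13.9 times in intergenic regions. The difference in share between exonic and intergenic regions, at 5.03%, was 1.04 points with an interval of −0.362 to 2.74, which includes 0. GC content moved with this share as well. It was 0.641% of exonic and 1.09% of intronic regions at 40 to 50% GC, 4.07% and 3.83% at 50 to 60%, 7.83% and 6.07% at 60 to 70%, and 10.5% and 7.86% above 70%, with overlapping intervals in each class. Coding regions had 8.46% and 3′ UTR regions 7.09%, a difference of 1.37 points with an interval of −3.38 to 6.14. The motif itself was denser in exons, with 27.8 matches per Mb against 13.1 per Mb of intron. The share of matches in an open region was 2.23% (1.74 to 2.85) in exons, 1.32% (1.15 to 1.51) in introns and 1.95% between genes. Beside AHSG, the highest CTCF regions were in PTPN18 (18.2 and 14.6), a tyrosine phosphatase, SLC2A9 (15.4 and 15.9), a urate transporter, C17orf50 (12.3 and 17.0) and TTC7A (15.6 and 12.6). The match in SLC2A9 lay in the intron beside the exon, 53 bp from the summit. AHSG, SLC2A9 and C17orf50 had no open canonical promoter, whereas PTPN18 and TTC7A did.

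**Figure D5:**
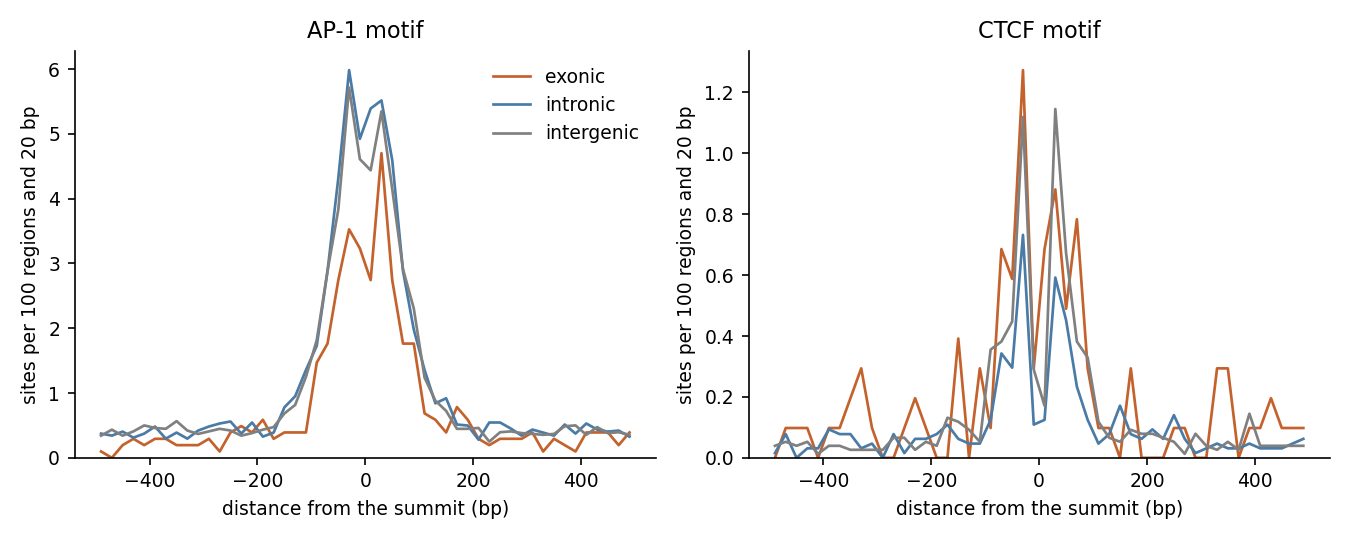
Motif matches per 100 regions in 20 bp bins (y axis) by distance from the summit (x axis) for AP-1 (left) and CTCF (right), in exonic, intronic and intergenic regions. Both motifs peak within 100 bp of the summit, AP-1 lower in exonic regions than in the others.

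Other motifs split by the kind of exon. The motif of SP and KLF factors, GGGCGGG, was in 21.5% of exonic regions and 10.4% of intronic ones, but in 36.5% of 5′ UTR regions and 13.0% of 3′ UTR regions. In exonic regions near another TSS it reached 29.1%, against 50.7% at promoters. Intronic regions near another TSS had it in 27.6%, a difference of 1.48 points (−2.82 to 5.93). With no TSS within 1 kb it was in 10.7% of exonic and 6.11% of intronic regions (difference 4.63 points, 1.93 to 8.02). Relative to the flanking windows the order of these shares was reversed, at 2.65 times in exonic and 3.11 times in intronic regions. Among all regions the ratios to the flanking windows were close, at 3.52 and 3.47. Mean GC content with no TSS within 1 kb was 56.9% in exonic and 50.3% in intronic regions. Whether the motif differs between them at equal GC content was not tested. A larger part of exonic than of intronic regions lay near another TSS (59.0% and 19.9%), so the shares of all regions mix these kinds unequally. The TEAD motif GGAATG, bound by the partners of YAP, was in 17.5% of exonic and 26.7% of intronic regions. Coding regions had it in 12.7% and 3′ UTR regions in 24.8%, a difference of −12.1 points (−18.8 to −5.39). Their flanking windows differed in the same direction, with 7.5% and 12.01%. The share at the summit was 1.69 times that of the flanking windows in coding and 2.07 times in 3′ UTR regions. It was 1.86 times in exonic and 2.43 times in intronic regions. Mean GC content was 64.04% in coding and 55.28% in 3′ UTR regions, and the TEAD difference at equal GC content was not tested. The motifs of RUNX (TGTGGTT) and ETS factors (CCGGAAG) were in 5.68% and 4.60%. Those of CREB (TGACGTCA) and CEBP (TTGCNNAA) were in 0.979% and 6.46%, and that of NRF1 in 0.881%. For CEBP the share was below the 8.57% of the flanking windows.

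A gene with an exonic region had an open canonical promoter in 560 of 922 cases (60.7%, 57.5 to 63.8). The share was 51.7% of all protein-coding genes and 63.4% (61.8 to 64.9) of genes with an intronic region. For 389 genes with an interior exonic region it was 60.7%. Epithelial and mesenchymal markers were read to check the label. Of 12 epithelial genes only KRT18 had an open canonical promoter in both replicates, and CDH1, EPCAM, KRT5 and TP63 were not detected. Of 12 mesenchymal genes 9 had one, VIM, FN1 and ZEB1 among them. The peaks thus show few of the promoters that define epithelial cells. Where the canonical promoter of a marker was not detected, the gene sometimes held an exonic region elsewhere. Whether such a region is a start in use was not tested. ZEB2, a repressor of epithelial genes, had none at its canonical promoter but 5′ UTR exon and non-coding exon regions with 6.55 and 6.19, and 5.66 and 4.56, both with an AP-1 motif. COL1A2, a fibrillar collagen gene, had a region 13 bp from the start of a transcript 29.1 kb inside the gene, with 6.24 and 7.70. ELF3, an epithelial ETS factor, had 4.33 and 8.61 in a 5′ UTR upstream of the canonical TSS. VIM (4.12 and 4.39) and SPARC (6.59 and 6.63), whose canonical promoters were open, had additional regions in 5′ UTR exons.

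Gene families were counted against the 4.62% of all protein-coding genes that held an exonic region. Such shares make no allowance for exon length, and all protein-coding genes together had 10.4 exonic regions per Mb of exon. C2H2 zinc finger genes had them in 12 of 558 genes (2.15%), with ZNF185 (10.05 and 14.95) and ZNF254 (7.97 and 16.1) the highest. No exonic region lay in the 39 HOX genes, the 53 clustered protocadherins or the 55 keratin genes. These lists hold only 0.0724, 0.157 and 0.108 Mb of the exon bases counted, too little for a count of 0 to set them apart. Of 12 laminin genes 3 held 5 regions, and LAMA2, a chain of the basement membrane, had 3 of them at internal starts (8.84 and 7.37, 6.24 and 9.06, 7.45 and 10.6), all 608 to 618 kb from its canonical TSS. LAMA1 (6.24 and 9.52) and LAMB1 had the others. Of 30 integrin genes 3 had regions, among them ITGB8 (8.14 and 12.5), whose AP-1 site lies in an exon without coding transcript.

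Among 30 genes of the actin cytoskeleton and adhesion 4 had 7 regions. PALLD, an actin-bundling protein, had 3, at internal starts and in a coding exon, with 4.85 and 6.97, 6.06 and 5.66, and 3.47 and 6.34, and its canonical promoter was not open. TNS1, a tensin of focal adhesions, had a pair at other 5′ UTR starts with 7.103 and 5.89, and 6.06 and 5.89. Of 22 Hippo pathway genes 3 had regions, with VGLL4 (9.53 and 11.7), a TEAD cofactor, and CCN1 (3.56 and 5.54) and CCN2, secreted YAP targets. In the TGF-β pathway 3 of 31 genes did. SMAD3, the signal transducer, had a 5′ UTR region 60.1 kb inside the gene with 5.20 and 9.52 and an AP-1 motif, SMAD7, the inhibitor, had 6.58 and 8.38, and LTBP4 had 4.68 and 3.79.

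The FOX, SOX, PAX and TBX factors held 6 regions in 6 of 87 genes, led by PAX8 (14.9 and 14.4), and those of FOXO6 (6.41 and 8.08) and SOX21 (5.37 and 4.76) lay in coding sequence with GC contents of 82.6% and 75.6%. KLF and SP factors had them in 4 of 30 genes, the highest in KLF10 (7.25 and 6.04). Of 19 genes of the FOS, JUN, ATF, BATF, JDP2 and MAF list, MAFK, a small MAF protein, had a region (4.04 and 4.34). The FOS and JUN genes had none, but the whole list holds only 0.0678 Mb of the exon bases counted. Collagen genes had them in 2 of 44 genes, COL11A1 and COL1A2, matrix metalloproteinases and their inhibitors in 1 of 46, MMP25 (5.37 and 4.98), and histone genes in 1 of 84, H2AZ1 (3.38 and 3.44). By exon length these were 5.11, 4.65 and 23.7 regions per Mb, against 10.4 in all protein-coding genes. The histone value rests on 1 region in 0.0423 Mb, too little to set these genes apart. The copy of the study's oncogene table used here lists 618 symbols, which may differ from the refined set of its text. Of the 612 found in the annotation 41 (6.70%) held 45 regions. Per Mb of exon the order was reversed, with 8.31 regions in the oncogenes against 10.4 in all protein-coding genes. CREB3L2 was the highest, followed by PPARG, a nuclear receptor, at 15.2 and 15.2, and LRIG3 in a coding exon at 14.2 and 15.4. In the oncogenes 31 of the 45 regions had another annotated TSS within 1 kb, and 7 held the AP-1 motif. Among all 1021 exonic regions these were 602 (59.0%) and 235 (23.0%). Whether the oncogene regions differ from all members in either share was not tested.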

How the data were processed

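ATAC-seq peaks of 2 replicates of untreated B2B cells were used, 28685 and 36109 peaks on chromosomes 1 to 22 and X of the 28874 and 36319 deposited. The authors mapped reads to hg38 with Bowtie2 2.4.4, removed duplicates, and called peaks with MACS2 2.2.7.1 on each replicate, keeping all remaining reads. The q limit, the Tn5 shift and the handling of mitochondrial reads are not given in the sources used here. The deposited lists hold, for each peak, a fold enrichment (a linear ratio), a −log10 p, a −log10 q, an integer score that was not used, and a summit position. No values were normalized between the replicates.

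Peaks overlapping by at least 1 bp were merged. Genes, exons and canonical transcripts were those of GENCODE 44. Coding sequence was taken before 5′ UTR, 3′ UTR and other exons. Motifs were searched on both strands within 100 bp of each summit, CTCF as a 12-base consensus with ambiguous letters. The fragment number at a summit was derived from its fold enrichment and −log10 p, with a tolerance of 0.01. Pileups (2000 of 2000), shared regions (400 of 400) and planted motifs (400 of 400) were recovered on simulated data. Of the exonic regions 0 of 1021 matched mitochondrial DNA (blastn 2.17.0, E-value at most 1e-10). Python 3.11.15, numpy 2.4.6, pandas 2.3.3, scipy 1.17.1, pysam 0.24.0 and matplotlib 3.10.9 were used.

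Regions were named by fixed rules: the 10 highest by mean fold enrichment, the 5 highest in coding sequence, 5′ UTR, 3′ UTR, and with the AP-1 or CTCF motif, the 3 widest, the 3 at either end of the ratio between replicates, genes with 3 or more regions, and the highest in 16 gene lists. The members and lists were chosen with earlier results of these data known. No test was made, since the series holds 1 condition, and regions are not replicates. Alternatives covered the q limit, the overlap, each replicate alone, the promoter distance, the TSS and exon sets, the motif window and spelling, and the GC window.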

Additional observations from a re-analysis of the deposited data

How the results depend on the processing

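Each of 10 results was recomputed under each alternative that applies to it. A value counts as moved when it changed by more than the SD between the replicates taken alone. That SD rests on 2 values and is imprecise, at 0.110 points for the coding share and 1.98 points for the 3′ UTR share. Of the 106 values 41 stayed within the SD (for the number of regions, within 1.5 times) and 65 moved. The annotation moved the counts, the shares by kind of exon and the density ratio widely. With promoters drawn at the TSS of any protein-coding transcript, 458 regions were left (1.81% of regions), 33.6% were coding, 49.1% were 3′ UTR, 8.52% had another TSS within 1 kb, the exon to intron ratio was 1.28, AP-1 was in 28.4%, CTCF in 7.21%, and the GC difference from introns was 6.98 points. With exons of canonical transcripts only, the values were 455 (1.80%), 52.1%, 43.5%, 34.3%, 1.23, 24.2%, 8.35% and 7.90 points. With promoters within 500 bp, they were 5.18% of regions, 28.0% coding, 20.1% 3′ UTR, 68.1% near another TSS, a ratio of 2.19, 19.2% AP-1, 5.72% CTCF and 9.12 points, and with promoters within 3 kb they were 3.15%, 24.4%, 28.4%, 53.9%, 1.70, 26.2%, 5.51% and 8.21 points. With the summits of both replicates in an exon, the share was 3.55%, the 3′ UTR share 27.8%, the ratio 1.71 and the share near another TSS 55.7%. Limits on the peaks did less. A −log10 q of at least 5 gave 25.0% coding and 23.5% AP-1. Equal numbers of the strongest peaks gave 24.8% coding, 24.3% AP-1, 6.36% CTCF and a median fold enrichment of 6.94. An overlap of 50% of each peak gave 25.2% coding, 24.1% AP-1 and a GC difference of 8.21 points.

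Other motif settings moved the AP-1 share to 15.4% within 50 bp, 27.9% in the whole region and 26.5% as TGANTCA, and the CTCF share to 3.33% and 7.64%. GC over the wider window gave 8.41 points. With either replicate left out, the number of regions was 1162 to 1549, the share 4.05% to 4.29%, the coding share 25.7% to 25.9%, the 3′ UTR share 24.4% to 27.2%, the ratio 1.83 to 1.92, AP-1 21.0% to 21.5%, CTCF 5.77% to 6.13%, the share near another TSS 55.8% to 58.7%, the median fold enrichment 5.72 to 6.12 and the GC difference 8.54 to 8.67 points. The density of exons stayed above that of introns under each alternative run on it, with ratios from 1.23 up to 2.19 in all. None of these alternatives held GC content fixed. Within the GC classes from 30 to 80% the ratio ran from 0.778 to 1.25, with exons below introns in all but the 50 to 60% class. Outside that range it was 5.76 below 30% and 2.25 above 80%, on few regions. No paired analysis was possible because the series holds 1 group.

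A summit needed 18 fragments in replicate 1 and 14 in replicate 2 among these regions, so weaker sites are missing from every count. Peaks that share a library are not independent. The annotation was not that of expressed transcripts in B2B cells, and which of the annotated starts are used was not tested.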
